A study of Rattus norvegicus with 10 samples.

Results

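Transcripts of 10 lysosomal proteases that process thyroglobulin were measured in PCCl3, an established rat line of thyroid follicular origin, after silencing of the thyroid transcription factor FoxE1. The proteases were the cathepsins Ctsa, Ctsb, Ctsc, Ctsd, Ctsh, Ctsk, Ctsl, Ctss and Ctsz and the asparaginyl endopeptidase legumain (Lgmn). They were taken by name, with every probe whose transcript belongs to one of them, which gave 10 of the 15154 genes that could be named on the array. Each was read by 1 probe, printed as 2 spots. The silenced cells (siFoxE1) were transfected with 25 nM of a pool of siRNAs against FoxE1. They were compared with cells given 25 nM of a non-targeting siRNA pool (siScramble) and with untreated wild type cells (wt), in 4 cultures of each condition, with RNA taken 48 h after transfection. All cells were of the same line and grew in the same serum and hormone mixture, which contains TSH and insulin, so that no culture without TSH was included. Each comparison held 4 two-colour arrays with siFoxE1 in the red dye Cy5 and its reference in the green dye Cy3. A single further array per comparison held pooled RNA of the same 4 cultures with the dyes exchanged, which gives 10 arrays in all. The siFoxE1 cultures of both comparisons were the same 4, so that the comparisons are not independent of each other.

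Thyroid cells store hormone as thyroglobulin, a large glycoprotein in the follicle lumen, and release it by taking thyroglobulin up and degrading it in endosomes and lysosomes. Cathepsins B, L, S and K are cysteine endopeptidases that cleave the protein internally, cathepsin D is an aspartic endopeptidase, and legumain cuts after asparagine and also matures other cathepsins. Cathepsins C and H remove residues from amino-terminal ends, and cathepsins A and Z act at carboxy-terminal ends, with cathepsin A also stabilising lysosomal sialidase and beta-galactosidase. A transcript level says nothing of how much active enzyme a lysosome holds, since these enzymes are made as inactive precursors and are cleaved after sorting.

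The targeted transcript was lower in the siFoxE1 cultures on all 10 arrays. Foxe1 had a fitted log2 ratio of -0.78 (SE 0.083) against siScramble and -0.84 (SE 0.0767) against wt, with limma adjusted p of 0.0201 and 0.0389. Of 10 thyroid follicular markers, 8 were well above background on all 5 wt arrays, while the iodotyrosine deiodinase gene Iyd was above it on 0 and Slc26a4 on 1. Among markers of other cells with a probe, Ptprc, Itgam, Cd163 and Cd3e of blood cells, Col3a1, Dcn and Lum of fibroblasts, Pecam1 and Tek of endothelium and all 3 of C cells were above it on 0 of the 5 wt arrays. Cd68, Cd14, Csf1r, Aif1, Lyz2, Col1a1, Col1a2, Pdgfra and Cdh5 were above it on all 5, Adgre1 on 4, Kdr on 3 and Pdgfrb on 1. On each array, 56.8% to 68.2% of spots in a channel were well above background and 0 spots were flagged as saturated. Each level or ratio is limited in precision by the number of arrays.

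Of the 10 proteases, 7 gave a signal well above background on every array in both channels, and 3 did not. Brightness is given as the percentile of the wt channel among the 18526 probes that could be tested against wt, averaged over 4 cultures. Cathepsin B stood at percentile 98.3, cathepsin L at 96.8, cathepsin A at 95.9 and cathepsin D at 95.1. Legumain stood at 73, cathepsin H at 68.4 and cathepsin C at 65.9. A probe's brightness depends also on its sequence, so that the percentiles place each probe among all probes and do not rank the transcripts against each other. Ctsk, Ctss and Ctsz, which encode cathepsins K, S and Z, were not well above background on any array in siFoxE1, siScramble or wt. Their raw signals in wt ran between 18.5 and 29.25 units, against a local background of 21 to 22.5 units. No ratio is given for these 3 genes, and a level below the reach of a single probe cannot be told apart from absence. Cathepsin S is abundant in antigen-presenting cells and cathepsin K in osteoclasts, besides their described roles in thyroid.

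Against siScramble, 16 of 9719 genes tested passed an adjusted p of 0.05, or 0.165% (9 higher and 7 lower in siFoxE1), and against wt 5 of 9880, or 0.0506% (2 higher and 3 lower). The test was limma with a dye term on the 5 arrays of a comparison, adjusted over all probes tested by the Benjamini-Hochberg method. None of the 7 measured proteases passed in either comparison. The median log2 ratio of the 7 was 0.17 against siScramble and 0.32 against wt, where the median of all genes tested was 0 in both. An unadjusted p below 0.05 was reached by 4 of 7 proteases against siScramble and by 5 of 7 against wt, all with fitted ratios above 0. Not all of these rises were seen on the individual arrays. Ctsa, counted against wt, averaged -0.04 on the individual arrays and had 0.63 on the pool. Ctsd, counted in both comparisons, averaged 0.06 on the individual arrays against siScramble and had 0.27 on the pool. The share of all genes on that side of that threshold was 9.06% against siScramble and 11.5% against wt. Ratios were above 0 on all 5 arrays for 3 of 7 proteases against siScramble (Ctsb, Ctsc and Ctsh), where 9.78% of genes were, and for 4 of 7 against wt (the same 3 and Ctsd), where 11% of genes were.

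Because the same siFoxE1 RNA was used in both comparisons, a fit of all 10 arrays with the replicate number as a block was also made. The pools formed a further block in it, although their RNA came from the same 4 cultures. In that fit, with 1 spread estimated from both comparisons, 4 of the 7 proteases were called against wt, all higher in siFoxE1: Ctsb (adjusted p 0.0169), Ctsc (0.0127), Ctsd (0.0228) and Ctsh (0.016). That fit called 1140 of 9578 genes against wt, or 11.9%. Against siScramble it called Ctsc alone among the proteases (adjusted p 0.0389, limma), with 54 of 9578 genes, or 0.564%, and left Ctsb at an adjusted p of 0.0562. The log2 ratios of the called proteases were nearly those of the separate fits, at 0.33 for Ctsb, 0.36 for Ctsc, 0.32 for Ctsd and 0.36 for Ctsh against wt and 0.37 for Ctsc against siScramble. The same 10 arrays without the block called the same 4 proteases against wt, where 14% of genes were called. Ctsb and Ctsc were called against siScramble (adjusted p 0.0475 and 0.0274, limma), where 0.804% of genes were. Without the block, both arrays of each siFoxE1 RNA and the pools count as independent, although n is 4 cultures. Fits of a single comparison without a dye term called more than those with one. With no dye term, Ctsb, Ctsc and Ctsh were called in both comparisons, with 4.5% of all genes against siScramble and 5.61% against wt. The 4 individual arrays alone called the same 3 proteases against siScramble, with 6.07% of genes, and Ctsb and Ctsh against wt, with 2.46%. The 3 individual arrays on slide 1 called Ctsb and Ctsh against siScramble, with 1.17% of genes.

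**Figure D1:**
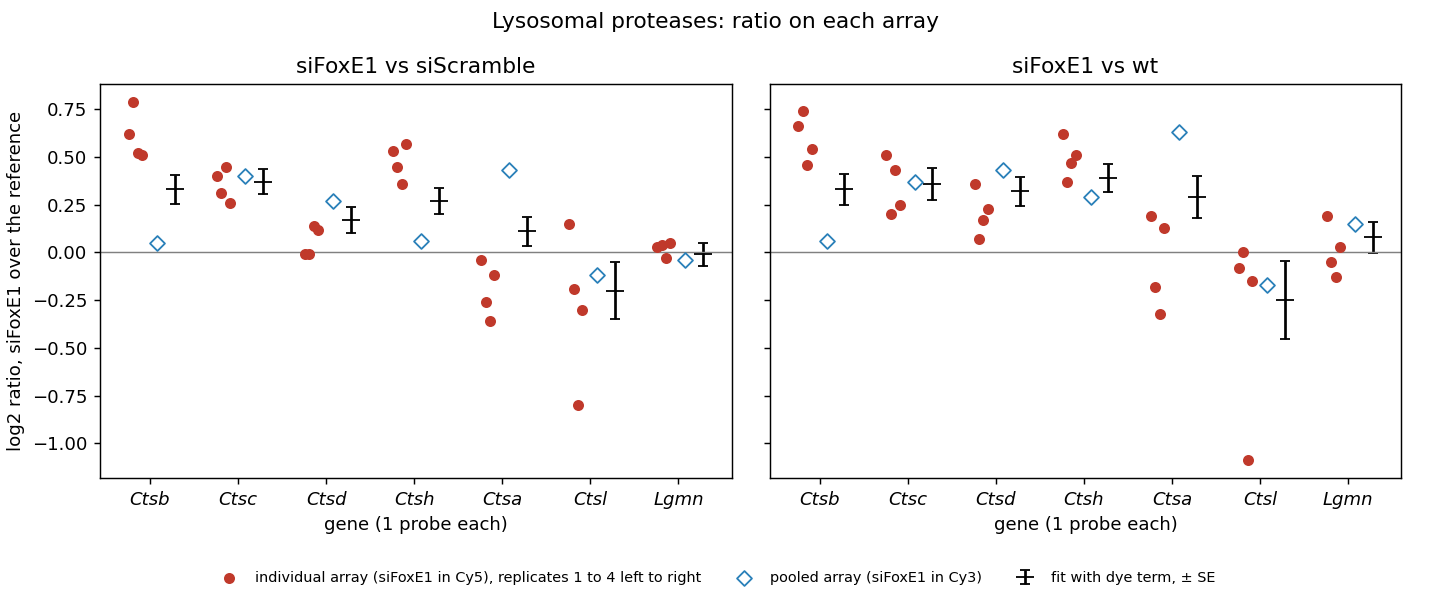
Log2 ratio of siFoxE1 over siScramble (left) and over wt (right) for the 7 measured proteases. Red points are the 4 individual arrays, the open diamond is the pooled array with exchanged dyes, and the black mark is the fitted ratio ± SE. Ctsb, Ctsc and Ctsh lay above 0 on all 10 arrays, and replicate 3 of Ctsl lay far below the others in both panels.

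Cathepsin C, which trims dipeptides and activates granule serine proteases in blood cells, had positive ratios on every array, whichever dye carried siFoxE1. Its log2 ratios against siScramble (probe A_43_P11819) were 0.40, 0.31, 0.45 and 0.26 on the individual arrays and 0.40 on the pool. Against wt they were 0.51, 0.20, 0.43 and 0.25, and 0.37 on the pool. The pooled array with exchanged dyes lay within the range of the individual arrays in both comparisons. The fitted ratio was 0.37 (SE 0.0659, adjusted p 0.12) against siScramble, a 1.3-fold difference, and 0.36 (SE 0.0835, adjusted p 0.218) against wt. In normalised log2 intensity the siFoxE1 cultures had 10.06, 9.95, 9.98 and 9.84, against 9.65, 9.65, 9.58 and 9.56 in siScramble and 9.56, 9.72, 9.50 and 9.61 in wt. Every siFoxE1 culture was above every culture of both references. For this probe the dye term was -0.02 against siScramble and -0.01 against wt, with little difference between the pool and the individual arrays. Levels of siFoxE1 come from Cy5 and those of both references from Cy3.

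Cathepsin B, the endopeptidase with the brightest probe of the group, also had positive ratios on all 10 arrays, but the pooled arrays, which also exchanged the dyes, gave lower ones. Its raw signals in wt ran between 56250 and 65056.25 units, and whether ratios are compressed at signals this high was not tested. Its log2 ratios (probe A_43_P15292) were 0.62, 0.79, 0.52 and 0.51 on the individual arrays against siScramble, and 0.05 on the pool. Against wt they were 0.66, 0.74, 0.46 and 0.54, and 0.06 on the pool. The individual arrays, with siFoxE1 in Cy5, were thus all well above the pools, with siFoxE1 in Cy3, by a similar margin in both comparisons. Each comparison has 1 array with exchanged dyes, which is also its only pool, so that dye and pooling cannot be told apart in the dye term. Against siScramble, the pool and replicate 3 were on slide 2 and the other individual arrays on slide 1, so that slide was partly mixed in as well. All arrays against wt were on slide 1. The dye term was 0.28 and 0.27, at percentiles 98.3 and 95.8 of its size among all genes, where the median size was 0.07. The fit that balances both orientations gave 0.33 (SE 0.0744, adjusted p 0.176) against siScramble and 0.33 (SE 0.0789, adjusted p 0.218) against wt, or 1.26-fold in each. The individual arrays alone, which cannot separate dye from condition, gave 0.61 and 0.60 and would have been called in both (limma adjusted p 0.00994 and 0.0254).

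Cathepsin H, an aminopeptidase, behaved in a similar way. Its dye term was smaller than that of Ctsb but still large against siScramble, at 0.21 (percentile 94.7 in size), and was 0.10 (percentile 62.6) against wt. Its log2 ratios (probe A_44_P552849) were 0.53, 0.45, 0.36 and 0.57 against siScramble, with 0.06 on the pool. Against wt they were 0.62, 0.37, 0.47 and 0.51, with 0.29 on the pool. All were above 0, with the pool lowest in both comparisons. The fitted ratio was 0.27 (SE 0.0673, adjusted p 0.195) against siScramble and 0.39 (SE 0.0742, adjusted p 0.196) against wt, where it had the lowest adjusted p of the group. Its levels also differed among cultures of a single condition, with 10.11, 10.50, 10.31 and 10.32 in siFoxE1, against 9.55, 10.04, 9.88 and 9.75 in siScramble and 9.52, 10.14, 9.90 and 9.81 in wt. Culture 1 was the lowest and culture 2 the highest in all 3 conditions.

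Cathepsin D, the aspartic protease of the group, had a larger fitted ratio against wt than against siScramble. Its log2 ratios (probe A_43_P13241) were -0.01, -0.01, 0.14 and 0.12 against siScramble, with 0.27 on the pool, and 0.36, 0.07, 0.17 and 0.23 against wt, with 0.43 on the pool. The values against wt were all positive, while 2 of the 5 against siScramble lay just below 0. The fitted ratio was 0.17 (SE 0.0656, adjusted p 0.309) against siScramble and 0.32 (SE 0.0778, adjusted p 0.218) against wt. The difference between both effects, which estimates siScramble over wt without any array of that pair, was 0.15 (SE 0.0717, limma adjusted p 0.978), so that the effects were not shown to differ.

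For cathepsin A, the carboxypeptidase, the pooled arrays, with exchanged dyes, and most individual arrays disagreed in sign. Its log2 ratios (probe A_44_P474755) against siScramble were -0.04, -0.26, -0.36 and -0.12 on the individual arrays and 0.43 on the pool. Against wt they were 0.19, -0.18, -0.32 and 0.13, and 0.63 on the pool. The pool was the highest of the 5 arrays in both comparisons, and the dye terms of -0.31 and -0.33 stood at percentiles 98.8 and 98.5 in size. The fitted ratio was 0.11 (SE 0.0775, adjusted p 0.558) against siScramble and 0.29 (SE 0.112, adjusted p 0.255) against wt, and the individual arrays alone gave -0.20 and -0.04. No direction can be given for Ctsa.

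Legumain had ratios close to 0. Its log2 ratios (probe A_43_P12172) lay between -0.04 and 0.05 against siScramble and between -0.13 and 0.19 against wt. The fitted ratio was -0.01 (SE 0.0604, adjusted p 0.976) against siScramble and 0.08 (SE 0.0817, adjusted p 0.633) against wt. Its level varied little over the 12 cultures, with an SD of 0.0827 on the log2 scale, at percentile 3.96 among all genes.

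Cathepsin L, a major lysosomal endopeptidase, was the most variable of the group, with an SD of 0.543 over the 12 cultures, at percentile 95.1. Its normalised log2 intensities (probe A_43_P11739) were 15.52, 14.29, 14.44 and 15.31 in siFoxE1, against 15.40, 14.47, 15.25 and 15.60 in siScramble and 15.57, 14.29, 15.51 and 15.46 in wt. Culture 2 was low in every condition, and its level minus the mean of the other 3 cultures was -0.80 in siFoxE1, -0.94 in siScramble and -1.22 in wt. Culture 3 was low in siFoxE1 only, and both arrays on which that RNA was hybridised gave the same picture, with levels of a siFoxE1 culture differing by at most 0.06 between its arrays. The log2 ratios were therefore uneven, at 0.15, -0.19, -0.80 and -0.30 against siScramble with -0.12 on the pool, and -0.08, 0.00, -1.09 and -0.15 against wt with -0.17 on the pool. Replicate 3 held the lowest ratio in both comparisons. The fitted ratio was -0.20 (SE 0.15, adjusted p 0.608) against siScramble and -0.25 (SE 0.203, adjusted p 0.53) against wt, with the largest errors of the group. Without replicate 3 it was -0.11 against siScramble and -0.12 against wt.

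**Figure D2:**
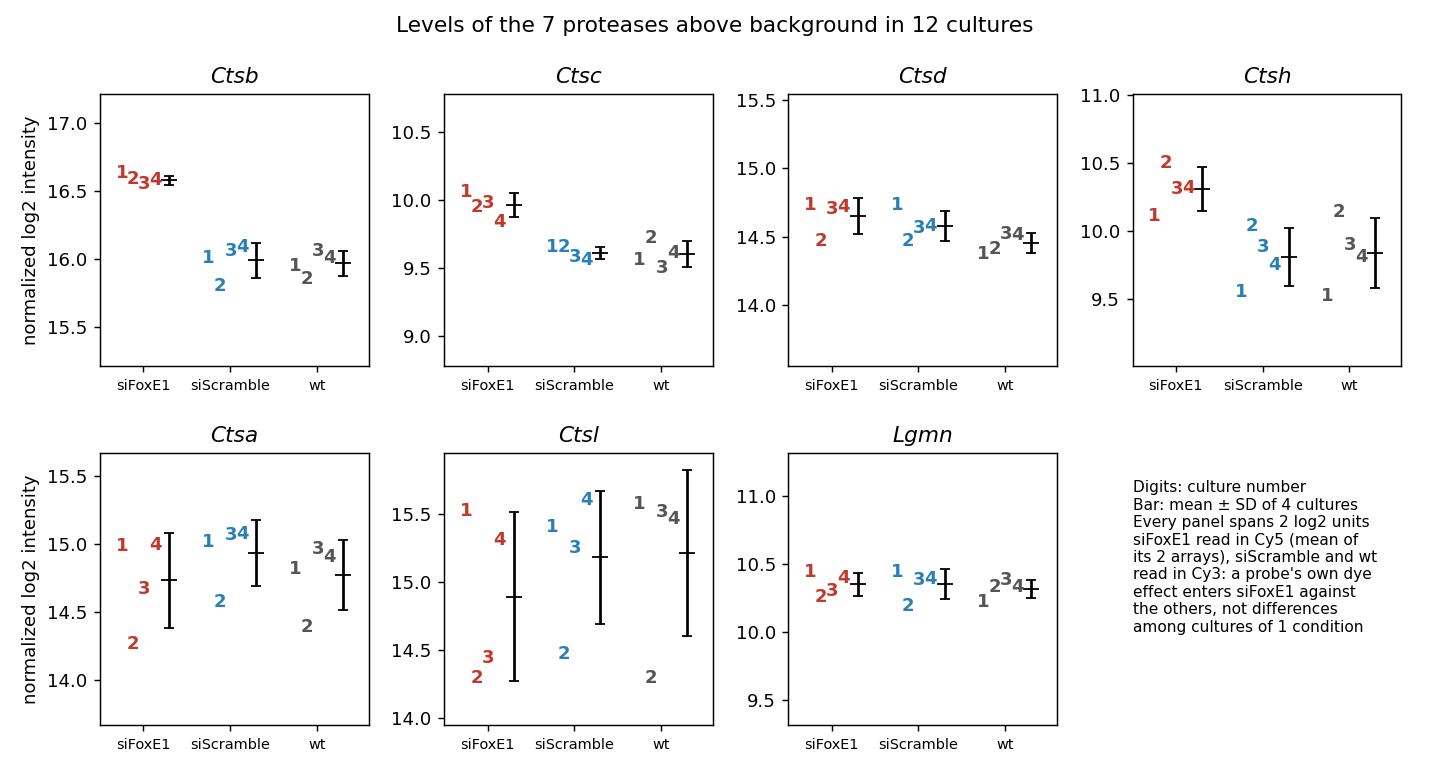
Normalised log2 intensity of each measured protease in the 12 cultures, with siFoxE1, siScramble and wt from left to right. Digits are culture numbers and bars the mean ± SD of 4 cultures, and every panel covers the same range of the log2 scale. Culture 2 was the lowest for Ctsl and Ctsa in all 3 conditions, while Lgmn hardly varied.

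Cathepsin A followed cathepsin L among the cultures, and cathepsin H ran against it. Ctsa had levels of 14.98, 14.26, 14.67 and 14.99 in siFoxE1, against 15.01, 14.57, 15.06 and 15.07 in siScramble and 14.81, 14.39, 14.96 and 14.90 in wt, and was again lowest in culture 2 of each condition. Over the 12 cultures the Pearson correlation of Ctsa with Ctsl was 0.90 (Spearman 0.64), the highest of the 21 pairs of measured proteases, and that of Ctsh with Ctsl was -0.68 (Spearman -0.71), the lowest. The cultures formed separate clusters for Ctsl, with 8 at 15.25 or above and 4 at 14.47 or below, and within the 8 higher cultures the correlation of Ctsa with Ctsl was -0.38 and that of Ctsh -0.39. The relation of Ctsa to Ctsl therefore rested on the 4 low cultures. In the 8 siScramble and wt cultures, all read in Cy3, the correlations with Ctsl were 0.88 for Ctsa and -0.79 for Ctsh, but also 0.87 for Ctsb (-0.07 over all 12) and -0.80 for Ctsc (-0.42 over all 12). In these 8 cultures the highest pair was Ctsa with Ctsb, at 0.94, where it was -0.02 over all 12. These values are descriptions over cultures that share arrays, and no test was made of pairs chosen for their size.

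By its median, the spread among cultures was not larger for the proteases than for other genes, but single proteases differed. The median range over 4 cultures was 0.26 for the 7 proteases in siFoxE1, 0.28 in siScramble and 0.22 in wt, against 0.43, 0.42 and 0.40 for all genes in the same order. Ctsl had ranges of 1.23, 1.13 and 1.28 and Ctsa of 0.74, 0.50 and 0.57, above those of all genes. Ctsb, Ctsc, Ctsd and Lgmn lay below them in every condition, and Ctsh in siFoxE1 only. Culture 2 stood apart from the other 3 for genes in general too, with a median absolute difference of 0.23 in siScramble and 0.25 in wt, where the other cultures had 0.10 to 0.18. In siFoxE1 culture 1 was the farthest at 0.21 and culture 2 followed at 0.19.

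Of 9579 other genes, the 5 whose levels followed those of Ctsl most closely over the 12 cultures were Dctn4 (r = 0.988), Hmox1 (0.987), Sqstm1 (0.986), Nfe2l2 (0.982) and Sat1 (0.981). Dctn4 encodes a dynactin subunit, Hmox1 heme oxygenase 1, Sqstm1 the autophagy receptor p62, Nfe2l2 a transcription factor of the oxidative stress response and Sat1 an enzyme of polyamine breakdown. Within the 8 cultures with high Ctsl, their correlations with it were 0.90, 0.82, 0.84, 0.83 and 0.78 in the same order. Hmox1 had log2 intensities of 12.28, 9.98, 10.52 and 11.97 in siFoxE1, against 12.45, 10.08, 11.87 and 12.42 in siScramble and 12.42, 10.21, 12.54 and 12.37 in wt. Like Ctsl, it was low in culture 2 of all conditions and in culture 3 of siFoxE1 alone. Sqstm1 was low in the same 4 cultures, with 13.80, 12.08, 12.28 and 13.35 in siFoxE1, against 13.83, 12.02, 13.29 and 13.82 in siScramble and 13.74, 12.16, 13.71 and 13.68 in wt. The genes were chosen for this likeness, so that the correlations carry no test. Their fitted ratios of siFoxE1 over a reference ran between -0.69 and -0.19, and none passed the adjusted threshold.

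**Figure D3:**
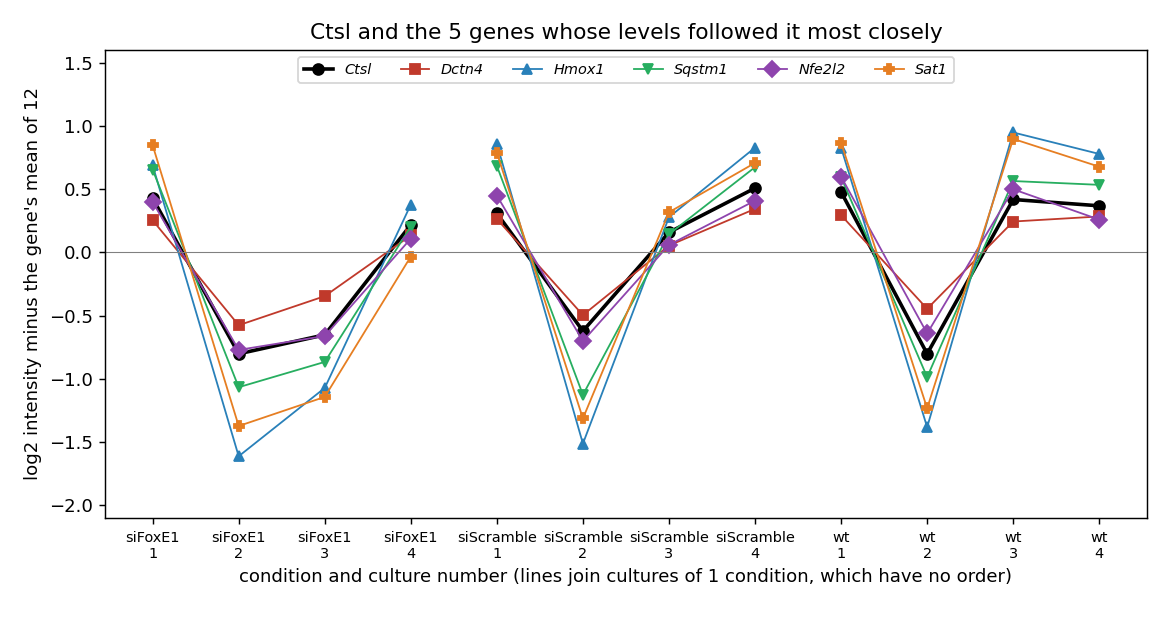
Levels of Ctsl (thick black line) and of the 5 genes most like it, as log2 intensity minus each gene's mean of the 12 cultures, for siFoxE1, siScramble and wt cultures 1 to 4. All 6 genes were low in culture 2 of every condition and in culture 3 of siFoxE1.

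No array set siScramble against wt, so their difference was estimated through the siFoxE1 cultures. Over the 10 arrays, siScramble over wt had log2 values between -0.05 for Ctsl and 0.16 for Ctsa, with no unadjusted p below 0.05 among the 7 genes, where 3.64% of 9578 genes had one and 0 passed after adjustment (8 in the block fit). In the block fit Ctsd and Ctsa had unadjusted p of 0.0248 and 0.0341, with adjusted p of 0.348 and 0.369 (limma). Levels of the references could also be set side by side, as both were read in Cy3. Ctsb averaged 15.99 ± 0.13 in siScramble and 15.97 ± 0.091 in wt, Ctsc 9.61 ± 0.047 and 9.60 ± 0.094, and Ctsh 9.81 ± 0.21 and 9.84 ± 0.26 (log2 intensity, SD, n = 4 each).

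Promoter windows of 300 bases were at hand for 9 of the 10 genes, from 250 bases before to 50 after the annotated start (RefSeq, build GRCr8). They were searched on both strands for AAACA, the core bound by FoxE1, for TTGG followed 5 to 30 bases later by AAACA, which joins it to a site of the NF1/CTF family, and for the E-box CACGTG and its extension TCACGTGA, the centre of the element recognised by TFEB in lysosomal genes. AAACA was found in 3 of 9 windows (Ctsc, Ctsd and Ctss), or 33.3%, against 51.9% of all 33469 windows. The joined motif was in 0 of 9, against 7.38% of all windows. CACGTG was in 1 of 9, against 6.42%, and TCACGTGA in the same 1, against 0.777%, namely Ctsd. The windows of Ctsc, Ctsd and Ctsh are shown, as 3 of the 4 proteases called against wt in the block fit. Capitals mark AAACA or its reverse complement and CACGTG, and Ctsh held none of them.
Ctsc, chr1:151440799-151441098, plus strand: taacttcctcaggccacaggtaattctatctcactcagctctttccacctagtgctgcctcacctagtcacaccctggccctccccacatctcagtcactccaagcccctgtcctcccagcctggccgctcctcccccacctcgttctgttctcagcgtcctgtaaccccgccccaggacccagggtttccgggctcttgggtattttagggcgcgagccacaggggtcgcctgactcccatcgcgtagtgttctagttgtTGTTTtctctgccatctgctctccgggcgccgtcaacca
Ctsd, chr1:206968772-206969071, minus strand: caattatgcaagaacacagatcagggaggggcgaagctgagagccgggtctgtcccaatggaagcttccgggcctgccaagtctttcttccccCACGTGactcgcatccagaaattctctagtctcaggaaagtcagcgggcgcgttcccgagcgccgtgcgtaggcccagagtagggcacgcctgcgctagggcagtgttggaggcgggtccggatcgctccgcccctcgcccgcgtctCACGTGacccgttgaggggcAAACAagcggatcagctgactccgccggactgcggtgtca
Ctsh, chr8:99488506-99488805, plus strand: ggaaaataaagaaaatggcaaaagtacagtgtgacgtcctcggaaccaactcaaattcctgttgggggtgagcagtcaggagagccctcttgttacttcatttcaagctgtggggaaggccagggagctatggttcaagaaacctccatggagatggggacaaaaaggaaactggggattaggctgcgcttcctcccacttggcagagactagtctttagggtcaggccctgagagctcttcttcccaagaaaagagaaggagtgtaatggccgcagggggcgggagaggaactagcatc
In Ctsd, counted from the start, 1 CACGTG lay at bases -157 to -152 and the other, within TCACGTGA, at -10 to -5. AAACA lay 11 to 15 bases after the start in Ctsd and, on the opposite strand, 12 to 16 bases after it in Ctsc. Such matches describe the letters of the window and no binding was measured here.

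Other lysosomal peptidases did not pass either. Of 12 in the list, 9 were tested, with 0 called in each comparison and median log2 ratios of 0.04 against siScramble and 0.13 against wt. An unadjusted p below 0.05 with higher values in siFoxE1 was reached by 2 of the 9 against siScramble and by 4 of the 9 against wt. Tpp1, a tripeptidyl peptidase, had 0.04 (SE 0.0745) and 0.10 (SE 0.11). The following 3 were named after their values were seen. Ctse, which encodes the aspartic protease cathepsin E, was above 0 on all 10 arrays, with 0.35 (SE 0.0958, adjusted p 0.206) against siScramble and 0.61 (SE 0.137, adjusted p 0.218) against wt, where the value was above that of any of the 7 proteases. Against wt, Napsa had 0.57 (SE 0.163) and Dpp7 0.39 (SE 0.105), each with an adjusted p of 0.218. Against siScramble they had 0.27 (SE 0.102, adjusted p 0.298) and 0.07 (SE 0.0839, adjusted p 0.752). On the individual arrays Napsa ran between -0.25 and 0.70 against wt, with 0.88 on the pool. Against siScramble it ran between -0.23 and 0.23, with 0.50 on the pool. Among 9 inhibitors of proteases, 5 were tested in each comparison and 0 called, with medians of 0.19 and 0.31. In each comparison 3 of the 5 reached an unadjusted p below 0.05 (limma) with higher values in siFoxE1. Cystatin C (Cst3), a secreted inhibitor of cysteine cathepsins, had a ratio of 0.19 (SE 0.103, adjusted p 0.462) against siScramble and 0.39 (SE 0.141, adjusted p 0.239) against wt. On single arrays it ran between -0.20 and 0.38 against siScramble and between -0.22 and 0.58 against wt, with replicate 2 below 0 in both. Cystatin B (Cstb), an inhibitor inside the cell, had 0.18 (SE 0.0737, adjusted p 0.341) and 0.31 (SE 0.0729, adjusted p 0.218). On the individual arrays Cstb had 0.22, 0.04, -0.06 and -0.03 against siScramble, with 0.31 on the pool. Against wt it had 0.29, 0.07, 0.09 and 0.18, with 0.47 on the pool. Fitted ratios of both inhibitors thus lay on the same side as those of Ctsb, Ctsc and Ctsh without passing. Unlike those 3 proteases, neither inhibitor was above 0 on all 10 arrays.

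The machinery that delivers the proteases to lysosomes was centred near 0. Of 21 sorting genes, 19 were tested and 0 were called, with medians of 0.05 against siScramble and 0 against wt. An unadjusted p below 0.05 (limma) was reached by 3 with higher and 3 with lower values against siScramble, and by 2 and 3 against wt. Of all genes, 9.06% were higher and 8.15% lower at that threshold against siScramble, and 11.5% and 10.3% against wt. The mannose 6-phosphate receptors M6pr and Igf2r, which carry newly made hydrolases from the Golgi, had ratios of 0.06 (SE 0.0689) and 0.24 (SE 0.132) against siScramble. Against wt, M6pr had -0.01 on its brighter probe and 0.11 on its other probe, and Igf2r had 0.29 (SE 0.17). Gnptab, which makes the sorting tag, was not analysed here.

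Lysosomal membrane proteins and cofactors had medians of -0.03 against siScramble and 0.02 against wt over 13 genes tested, and 0 were called. An unadjusted p below 0.05 (limma) was reached by 0 with higher and 2 with lower values against siScramble, and by 3 and 2 against wt. Of all genes, 9.06% were higher and 8.15% lower at that threshold against siScramble, and 11.5% and 10.3% against wt. Mcoln1 (-0.32 and -0.31) and Tmem192 (-0.26 and -0.37), named after their values were seen, were below 0 on all 10 arrays. The membrane proteins Lamp1 and Lamp2 had ratios of -0.03 (SE 0.0825) and -0.05 (SE 0.0981) against siScramble, and of 0.08 (SE 0.129) and 0.01 (SE 0.129) against wt. Psap, the precursor of saposins, had 0.05 (SE 0.0659) and 0.24 (SE 0.077, adjusted p 0.227). The 15 tested subunits of the vacuolar ATPase, the pump that acidifies lysosomes, had medians of -0.04 and -0.06, with 0 called, and Atp6v0d1 had a ratio of 0.00 in both comparisons (SE 0.0842 and 0.108). Atp6v0a2, another subunit, named after its values were seen, was below 0 on all 10 arrays, with -0.53 (SE 0.113, adjusted p 0.164) against siScramble and -0.74 (SE 0.205, adjusted p 0.218) against wt.

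Of 23 tested glycosidases, sulfatases, lipases and phosphatases, 0 were called, with medians of 0.03 against siScramble and 0.09 against wt. An unadjusted p below 0.05 (limma) with higher values in siFoxE1 was reached by 2 of them against siScramble and by 6 against wt. With lower values it was reached by 0 in both. Smpd1, named after its values were seen, was counted as higher in both comparisons. It had -0.11, -0.25, -0.02 and -0.03 on the individual arrays against siScramble and 0.48 on the pool. Against wt it had -0.13, -0.20, -0.05 and 0.09, and 0.51 on the pool. The share of all genes on the higher side was 9.06% against siScramble and 11.5% against wt. The 13 tested genes of the TFEB family and of lysosomal signalling had medians of 0.01 and -0.05 with 0 called. Tfeb, a transcription factor of lysosomal genes, had a ratio of 0.15 (SE 0.118, adjusted p 0.616) against siScramble and 0.16 (SE 0.1, adjusted p 0.422) against wt.

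**Figure D4:**
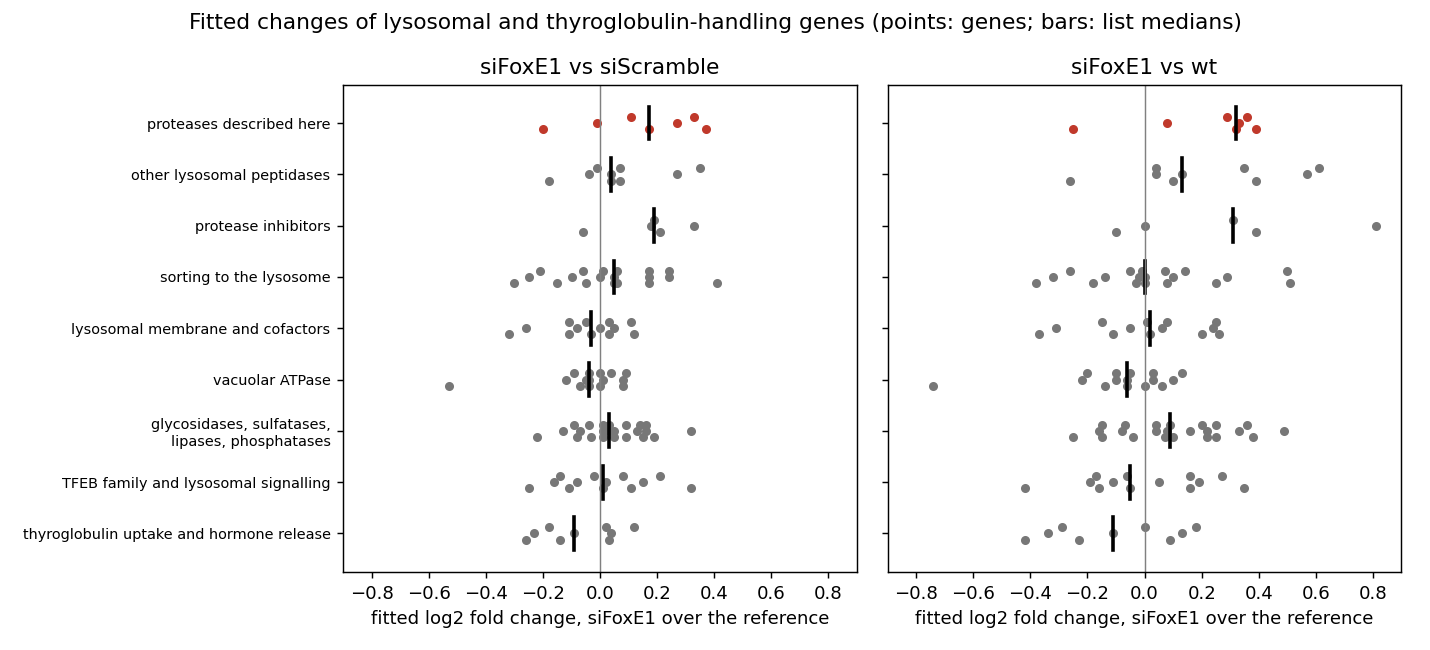
Fitted log2 fold change of siFoxE1 over siScramble (left) and over wt (right) for single genes (points) and list medians (bars). The median of the 7 proteases (red points) was 0.17 against siScramble and 0.32 against wt, that of the protease inhibitors was 0.19 and 0.31, and the vacuolar ATPase and sorting lists were centred within 0.06 of 0.

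Genes of thyroglobulin uptake and hormone release had medians of -0.09 against siScramble and -0.11 against wt over 9 tested genes, and 0 were called. Thyroglobulin (Tg), the substrate of the proteases, had individual ratios of 0.11, 0.12, -0.10 and 0.17 against siScramble and -0.53 on the pool, and of 0.04, 0.02, -0.05 and -0.06 against wt with -0.58 on the pool. The individual arrays lay around 0 and the pools well below it, so that the fitted ratios of -0.23 (SE 0.0724, adjusted p 0.245) and -0.29 (SE 0.0654, adjusted p 0.218) came from the pools. Its probe, like that of Ctsa, thus gave different pictures on the individual arrays and on the pools with exchanged dyes. The Tg probe had a log2 intensity of 16.33 in wt, above the 15.97 of the Ctsb probe. Whether ratios are compressed at signals this high was not tested. Lrp2, which encodes megalin, an endocytic receptor that binds thyroglobulin, had a ratio of -0.14 (SE 0.0672, adjusted p 0.39) against siScramble and -0.34 (SE 0.0805, adjusted p 0.218) against wt. Its individual arrays had -0.39, -0.28, -0.22 and -0.42 against siScramble, with 0.04 on the pool. Against wt they had -0.37, -0.33, -0.21 and -0.54, with -0.32 on the pool. A dimmer probe of Lrp2 had fitted ratios of -0.03 against siScramble and -0.21 against wt.

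Apart from Foxe1, the only gene of any list that passed was Cd68, a lysosomal glycoprotein also used as a macrophage marker, with a ratio of -0.73 (SE 0.0615, adjusted p 0.00721) against siScramble. It rested on the pooled array, at -1.49, while its 4 individual arrays lay between 0.00 and 0.10, and against wt the ratio was -0.10 (SE 0.0733, adjusted p 0.495).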

How the data were processed

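RNA of 4 PCCl3 cultures per condition was hybridised to 10 two-colour Agilent rat arrays. The deposited files held median spot and background intensity per channel from Feature Extraction 10.7.3.1, together with processed intensity, a log10 ratio of Cy5 over Cy3 that was not used as a measurement, and spot marks. A further table made by the authors held log2 ratios after loess and quantile normalization (limma 3.2.3, per the submitters' processing notes), and served as an alternative. Here, median signals were background-corrected by normexp (offset 50), normalized by loess within arrays and by quantiles of the average signal between arrays (limma 3.58.1, R 4.3.3), turned to siFoxE1 over its reference, and averaged over the spots of a probe. Outlier and control spots were left out. Dyes were taken from the labels. The key of a figure in the study shows them the other way, and Foxe1 was below 0 on all 10 arrays with the labels' dyes. Testing required that 1 channel of a probe be marked well above background in 3 or more of the 5 arrays. Each comparison was fitted on its 5 arrays with a dye term (3 residual degrees of freedom), and calls needed a Benjamini-Hochberg adjusted p below 0.05. The fitted ratio is the average of the pool and the mean of the individual arrays. Pooled RNA came from the individual cultures, and n is therefore 4. Probes were named through RefSeq transcripts (17998 of 30367), and where a gene had several tested probes the brightest was used. The fit was tested on simulated data.

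Genes named are all proteases, list genes that passed, a fixed set of lysosomal and thyroid genes, and the 5 genes most correlated with the protease of highest SD. Some genes of the fixed set are not reported here. The members and lists were chosen with earlier results of these data known. Alternatives covered dye, pooled arrays, replicate block, background, normalization, filter, trend, slide and replicates. Replicate numbers were taken to pair the samples, as the siFoxE1 RNA is shared by number. Deviations of same-numbered siScramble and wt arrays correlated at 0.625, 0.751, 0.778 and 0.408. However, siScramble 4 correlated more with wt 3 (0.516), and siScramble 1 with wt 2 reached 0.387. These correlations include that shared RNA, so they cannot by themselves show that siScramble and wt cultures are paired.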

Additional observations from a re-analysis of the deposited data

Results flagged for a closer look

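In 35 groups of 4 cultures or arrays, the gap of the farthest sample was divided by the range of the group, and 4 passed Dixon's critical value, where chance gives about 1 in 20 groups. Ctsl in wt had a gap share of 0.912, with culture 2 at 14.29 on the log2 scale. Ctsa in siScramble had 0.887, with culture 2 at 14.57. Ctsd in siFoxE1 had 0.87, with culture 2 at 14.47. The individual log2 ratios of Ctsl in siFoxE1 over wt had 0.865, with replicate 3 at -1.09. Culture 2 was thus the far sample in 3 of the 4 cases, each in another condition.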

How the results depend on the processing

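Counts of called genes depended strongly on how dye, pooled arrays and replicates were modelled. Against siScramble, 16 genes were called, against 437 with no dye term, 590 with the 4 individual arrays alone, 77 with all 10 arrays and no replicate block, 0 with Feature Extraction processed signals, 29 with a slide term and 114 on slide 1 alone. Leaving out a replicate gave 3 to 32 genes (3 without replicate 1, 32 without replicate 2 and 29 without replicate 3). Against wt, 5 genes were called, against 554 with no dye term, 243 with the individual arrays alone, 1345 with all 10 arrays and no block, 0 with processed signals, 14 with offset 16, 3 in the authors' table, 2 with no filter, 18 with a robust trend and 3 with quantiles of single channels, an alternative chosen after seeing the data. Leaving out a replicate gave 0 to 73 genes (0 without replicate 1 or 4, 14 without replicate 2 and 73 without replicate 3).

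With the replicate number as a block (within-number correlation 0.532), 54 genes were called against siScramble, 1140 against wt and 8 for siScramble over wt, and 1 and 4 proteases in the first 2 comparisons. Proteases called were 3 against siScramble and 3 against wt with no dye term, 3 and 2 with the individual arrays alone, 2 and 4 with all 10 arrays and no block, and 2 against siScramble on slide 1. They were 0 in all other settings, including each replicate left out. The causes were not tested, except that settings without a dye term or pools cannot separate dye from condition.

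Of the protease values, 216 kept direction and call, 24 became called and 19 reversed. Loess without the quantile step could not differ from the main fit, because that step changes average signals and not ratios. Against siScramble, the slide term gave the same ratios as leaving out replicate 3, the only individual array on slide 2. These settings are therefore not separate alternatives, although the counts include them. Ctsa against siScramble was -0.07 with no dye term, -0.20 on individual arrays and -0.14 on slide 1, and against wt -0.04 on individual arrays. Lgmn against siScramble was 0.01 with no dye term or with quantiles of single channels, 0.02 on individual arrays, in both fits of 10 arrays, with processed signals and in the authors' table, 0.00 with a slide term or without replicate 3, and 0.04 on slide 1. For siScramble over wt, Lgmn was -0.01 without replicate 1, Ctsb 0.00 and Ctsc 0.01 without replicate 2, and Ctsb and Ctsl 0.01 without replicate 3. With a replicate left out, these differences ran between -0.02 and 0.01 for Ctsb, -0.04 and 0.01 for Ctsc, -0.11 and 0.01 for Ctsl and -0.01 and 0.06 for Lgmn. Normexp on mean signals was not run, as mean spot signals were not used here, and no protease had another probe. Low signal limits Ctsk, Ctss and Ctsz.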
